A study of Mus musculus with 4 samples.

Results

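The Bcl-2 family genes that decide between survival and death of a thymocyte were read with 24 probe sets out of 45037 on the array. They were taken as every probe set whose only gene symbol in the platform annotation was Bcl2, Bcl2l1, Mcl1, Bax, Bak1, Bcl2l11, Bbc3, Pmaip1, Bid or Bmf. Of these 10 genes, 9 had at least 1 probe set and 7 had more than 1, while no probe set named Bax alone and Bax is not analysed here. Sorted CD4+CD8+ double-positive (DP) thymocytes of C57BL/6 mice were hybridised to 1 array per sample, 2 labelled WT and 2 labelled hCD2-iCre x Gfi1fl/fl, from 100 ng of total RNA each. In the latter, a recombinase driven by human CD2 regulatory elements, which are active in lymphoid cells from early stages of development, is combined with a Gfi1 gene flanked by loxP sites. Gfi1 encodes a zinc-finger transcriptional repressor. The labels give no age, and do not say that the WT mice carried the recombinase or the floxed allele, so the recombinase's own effect cannot be told apart from that of the floxed gene. Nor do they state that each replicate was a different animal, and the p-values therefore reflect the spread of these 4 samples, which may be technical. Because these were bulk samples, fewer cells of a type and less RNA per cell cannot be told apart.

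Bcl-2 family proteins control the permeability of the outer mitochondrial membrane. The effectors Bax and Bak1 form pores through which cytochrome c leaves. The pro-survival proteins Bcl-2, Bcl-xL (from Bcl2l1) and Mcl-1 hold the effectors and the BH3-only proteins in check. The BH3-only proteins Bim (from Bcl2l11), Puma (Bbc3), Noxa (Pmaip1), Bid and Bmf carry death signals to both. DP thymocytes are known for low Bcl-2 and for dependence on Bcl-xL, and Bim is known for its part in the deletion of self-reactive thymocytes.

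Promoter windows from RefSeq (assembly GRCm38.p6, 250 bases before to 50 bases after a transcript start) were matched by symbol for 9 of the 10 genes, in 16 windows. They were searched on both strands for a FOXO core, because the series title names a Gfi1-Foxo1 axis, for a Gfi1 core, and for the p53 half-site, because p53 is a known regulator of several BH3-only genes. The FOXO core GTAAACA was found in 1 window each of Bcl2l11 and Bbc3, and in 3.65% of all 32851 windows. The Gfi1 core AAATCA was found in 1 window of Bcl2l1 and in 14.0% of all windows. A p53 half-site was found in 1 window each of Bax and Bmf and in 8.36% of all windows. Pmaip1 was the gene without a window, so its promoter was not searched for any of these motifs. A match describes the letters only. For the genes with array values, 100 bases around each match are shown 5′ to 3′ on the gene's strand, with the matching letters in capitals:
Bcl2l11, FOXO core, chr2:128125788-128125887, plus strand: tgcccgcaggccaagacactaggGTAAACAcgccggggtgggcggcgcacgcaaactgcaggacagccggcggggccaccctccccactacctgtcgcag
Bbc3, FOXO core, chr7:16310049-16310148, plus strand: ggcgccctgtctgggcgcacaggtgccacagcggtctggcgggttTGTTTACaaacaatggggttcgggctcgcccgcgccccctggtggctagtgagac
Bcl2l1, Gfi1 core, chr2:152830855-152830954, minus strand: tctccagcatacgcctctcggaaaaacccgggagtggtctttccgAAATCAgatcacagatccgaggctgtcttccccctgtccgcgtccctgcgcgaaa
Bmf, p53 half-site, chr2:118544738-118544837, minus strand: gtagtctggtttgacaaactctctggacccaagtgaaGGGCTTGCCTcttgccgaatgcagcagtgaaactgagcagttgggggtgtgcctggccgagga
The match began 227 bases before the transcript start in Bcl2l11, 167 in Bbc3, 192 in Bcl2l1 and 213 in Bmf. In Bbc3 the capitals read the core on the opposite strand.

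The 4 arrays had medians between 3.53 and 3.55 and upper quartiles between 6.51 and 6.59 on the log2 scale of the deposited RMA signals. Gfi1 itself had a higher signal under the hCD2-iCre x Gfi1fl/fl label than under WT. Its 1 probe set read 10.17 and 10.08 on the WT arrays against 11.47 and 11.32, a log2 difference of 1.27 ± 0.13 (SE, adjusted p = 0.00976, limma). Where this probe set lies relative to the deleted part of the gene is not given in the sources used here, so it may check nothing, and all directions below are between arrays as labelled. Genes that mark DP cells had high signals under both labels. Cd4 lay between 8.24 and 8.66, and Cd8a, Cd8b1, Rag1 and Rag2 lay between 11.27 and 12.78. None of these 5 was called different, the lowest adjusted p being 0.828 (limma).

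The comparison asked which members differed between DP thymocytes of the 2 labels. None of the 24 probe sets was called at an adjusted p of 0.05 by limma over all 45037 probe sets, where 0.766% were called (0.664% higher and 0.102% lower on the Gfi1fl/fl-labelled arrays). The largest differences lay in the BH3-only genes and ran in both directions. Both Gfi1fl/fl-labelled arrays read above both WT arrays on the 1 probe set of Pmaip1 and on all 5 of Bcl2l11, and below both on 2 of 3 probe sets of Bid and 1 of 3 of Bmf. At an unadjusted p under 0.05 there were 8 of the 24 probe sets, 5 higher and 3 lower, against 7.64% of all probe sets. These 8 belonged to 4 genes and are repeated readings of the same RNA, so they are not 8 independent results. The values of the labels did not overlap for 13 of the 24 probe sets, against 34.7% of all probe sets. Of these, 9 were higher and 4 lower under the Gfi1fl/fl label, where 16.8% and 17.9% of all probe sets were. These 13 hold repeated readings too and are not independent results. Of the 9 higher, 5 were of Bcl2l11 and 2 of Mcl1. Of the 4 lower, 2 were of Bid and 1 was of Mcl1. The median log2 difference over the 24, which counts each repeated reading, was 0.09, beside -0.01 over all probe sets. A permutation of the 4 arrays cannot give an exact two-sided p below 0.333 for a single probe set.

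**Figure D1:**
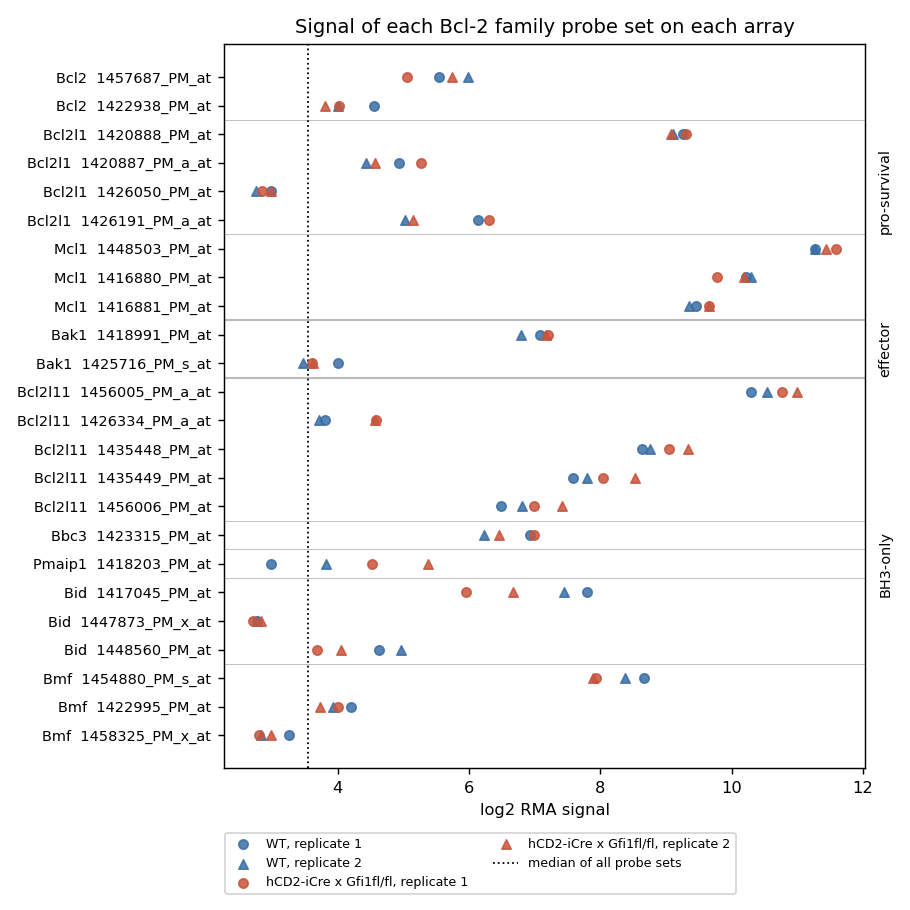
The log2 RMA signal (horizontal axis) of each of the 24 probe sets (rows, named by gene and probe set) is plotted for the 4 arrays, with colour for the label and shape for the replicate, and a dotted line at the median of all probe sets. The 5 rows of Bcl2l11 and the row of Pmaip1 have both Gfi1fl/fl points to the right of both WT points, and 2 rows of Bid and 1 row of Bmf have them to the left.

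Among the pro-survival genes, the differences of all 9 probe sets lay between -0.37 and 0.25 on the log2 scale, with a lowest adjusted p of 0.732 (limma). Bcl2, the founding inhibitor of the family, was read by 2 probe sets. The brighter one (1457687_PM_at) gave 5.54 and 5.98 on the WT arrays and 5.06 and 5.74 on the Gfi1fl/fl-labelled arrays. The other (1422938_PM_at) gave 4.55 and 4.01 against 4.02 and 3.81. On each of them 1 WT array lay between the Gfi1fl/fl-labelled arrays, so the labels overlapped. The differences were -0.36 (95% interval -1.11 to 0.38) and -0.37 (-0.92 to 0.19). When each array was left out in turn they ranged from -0.71 to -0.02 and from -0.64 to -0.10.

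Bcl2l1, whose product Bcl-xL keeps DP cells alive, was read by 4 probe sets, and the labels overlapped on each. The brightest (1420888_PM_at) gave 9.25 and 9.11 on the WT arrays and 9.31 and 9.08 on the Gfi1fl/fl-labelled arrays. Its difference was 0.02 ± 0.19 (SE), with a 95% interval of -0.43 to 0.46. The probe set 1426191_PM_a_at gave 6.14 and 5.02 on the WT arrays and 6.30 and 5.14 on the Gfi1fl/fl-labelled arrays. Both arrays numbered 1 were high and both numbered 2 were low on it, and the difference between labels was 0.14 ± 0.49 (SE). The same split by number was seen on 1420887_PM_a_at, with 4.94 and 4.43 against 5.27 and 4.56. The brightest probe set also split by number in this way, but more narrowly. The 4th, 1426050_PM_at, stayed between 2.75 and 2.98, below the array medians, where a difference could not be measured.

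Mcl1, a short-lived inhibitor needed at many stages of lymphocyte development, was read by 3 probe sets made from 1 source sequence, and they did not run the same way. The brightest (1448503_PM_at) gave 11.27 on both WT arrays and 11.59 and 11.43 on the Gfi1fl/fl-labelled arrays, a difference of 0.24 ± 0.11 (SE, adjusted p = 0.732, limma). The probe set 1416881_PM_at gave 9.45 and 9.35 against 9.65 and 9.66. The probe set 1416880_PM_at gave 10.21 and 10.30 against 9.78 and 10.19. The labels did not overlap on any of the 3, but they were higher under the Gfi1fl/fl label on the first 2 and lower on the last, with differences of 0.25 and -0.27 for the latter 2. The 95% interval of each included 0, and no direction is given for Mcl1.

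Of the effectors, Bak1 was read by 2 probe sets. The brighter (1418991_PM_at) gave 7.08 and 6.79 on the WT arrays and 7.20 and 7.17 on the Gfi1fl/fl-labelled arrays. The labels did not overlap, but the gap between WT replicate 1 and the nearer Gfi1fl/fl-labelled array was smaller than the gap between the WT arrays. The difference was 0.25 ± 0.24 (SE, adjusted p = 0.944, limma). The other probe set (1425716_PM_s_at) gave 4.0 and 3.47 against 3.61 and 3.63, with the WT arrays on both sides of the others.

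**Figure D2:**
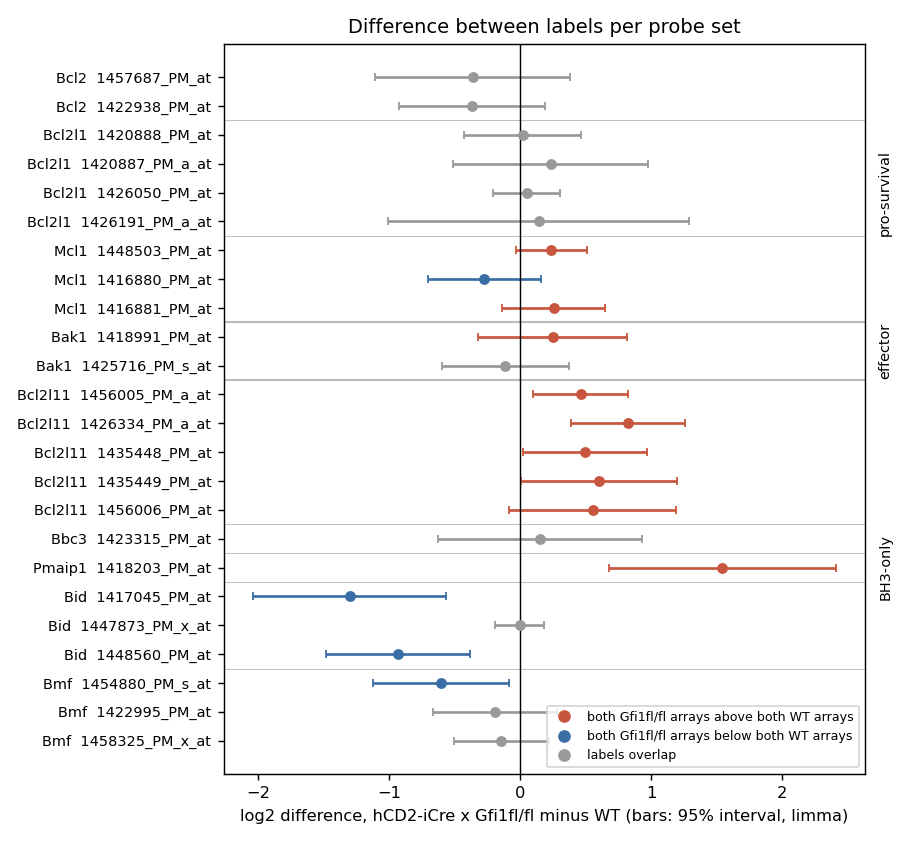
The log2 difference between labels (horizontal axis, Gfi1fl/fl minus WT) is shown for each of the 24 probe sets as a point with its 95% interval from limma, coloured by whether the arrays of the labels overlap. All 9 intervals of the pro-survival genes include 0, while those of Pmaip1, of 4 of the 5 Bcl2l11 rows, of 2 Bid rows and of 1 Bmf row do not, before any adjustment for the number of probe sets.

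Bcl2l11, which encodes Bim, was the member with the most readings and was higher on both Gfi1fl/fl-labelled arrays than on both WT arrays on all 5 of its probe sets, made from 3 source sequences. The brightest (1456005_PM_a_at) gave 10.30 and 10.54 on the WT arrays and 10.77 and 10.99 on the Gfi1fl/fl-labelled arrays. The difference was 0.46 ± 0.15 (SE, 95% interval 0.09 to 0.83, adjusted p = 0.472, limma), a ratio of 1.38 between RMA signals. The labels were separated there by a gap about as wide as the spread within each. The dimmest (1426334_PM_a_at) gave 3.80 and 3.72 against 4.58 and 4.57. Its difference of 0.82 ± 0.18 (SE) was far wider than the spread within a label and had the lowest adjusted p of all members, 0.179 (limma). Both WT signals lay only a little above the array medians of 3.53 to 3.55. This close to the bottom of the range, the size of the difference could not be measured well.

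The other 3 Bcl2l11 probe sets gave differences of 0.50, 0.60 and 0.55. On 1435448_PM_at the WT arrays read 8.64 and 8.76 and the others 9.05 and 9.34. On 1435449_PM_at the values were 7.58 and 7.79 against 8.04 and 8.52. On 1456006_PM_at they were 6.49 and 6.80 against 6.99 and 7.41. In each case the Gfi1fl/fl-labelled replicate 2 was the highest array and WT replicate 1 the lowest. No Bcl2l11 probe set was called, with adjusted p between 0.179 and 0.734 (limma). When each array was left out in turn, the difference of the brightest probe set lay between 0.34 and 0.58, that of the dimmest between 0.78 and 0.86, that of 1435448_PM_at between 0.35 and 0.64, that of 1435449_PM_at between 0.36 and 0.84 and that of 1456006_PM_at between 0.34 and 0.77. The FOXO core shown above lies in the window of 1 Bcl2l11 transcript start. The Foxo1 probe set was below the array medians on all 4 arrays, so a change of Foxo1 could not be judged with it. Foxo3, another FOXO gene, read 9.45 and 9.59 on the WT arrays and 9.39 and 9.70 on the Gfi1fl/fl-labelled arrays. Its difference was 0.03 ± 0.19 (SE), and the labels overlapped. A part of either gene in the Bcl2l11 values was not tested.

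Bbc3, which encodes Puma and carries the same core in 1 window, was read by 1 probe set (1423315_PM_at). It gave 6.92 and 6.23 on the WT arrays and 6.99 and 6.46 on the Gfi1fl/fl-labelled arrays. Both arrays numbered 1 were high and both numbered 2 were low, and the labels overlapped. The difference was 0.15 ± 0.33 (SE), with a 95% interval of -0.63 to 0.93.

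Pmaip1, which encodes Noxa, the inhibitor of Mcl-1 best known as a p53 and stress target, had the largest difference of the members. Its 1 probe set (1418203_PM_at) gave 2.99 and 3.82 on the WT arrays and 4.52 and 5.38 on the Gfi1fl/fl-labelled arrays. WT replicate 1 lay below its array's median, and both Gfi1fl/fl-labelled arrays were above both WT arrays. The difference was 1.54 ± 0.37 (SE, 95% interval 0.68 to 2.41), a ratio of 2.91 between RMA signals. It was not called over all probe sets (adjusted p = 0.212, limma). Without Gfi1fl/fl-labelled replicate 1 it was called, with a difference of 1.97 and an adjusted p of 0.0386 (limma, range over the arrays left out 0.0386 to 0.606). Without replicate 2 of that label the difference was 1.11. Because the WT signals lay near the bottom of the range, the ratio is one of signals and not of transcript amounts.

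Bid, which is cut by caspase-8 and so links death receptors to mitochondria, had the largest difference downward. The brightest probe set (1417045_PM_at) gave 7.79 and 7.44 on the WT arrays and 5.96 and 6.67 on the Gfi1fl/fl-labelled arrays. Both of the latter were below both WT arrays, and the gap to the WT arrays was about as wide as the spread between them. The difference was -1.30 ± 0.31 (SE, 95% interval -2.04 to -0.57, adjusted p = 0.214, limma). A 2nd probe set from the same source sequence (1448560_PM_at) gave 4.63 and 4.97 against 3.68 and 4.05, a difference of -0.93 ± 0.23 (SE, adjusted p = 0.244, limma). The 3rd (1447873_PM_x_at), a kind of probe set whose probes can match other transcripts, stayed between 2.71 and 2.83 on all arrays, where a decrease could not be measured. Over the fits that left out 1 array, the difference of the brightest probe set ranged from -1.66 to -0.95, and its lowest adjusted p was 0.0701, without Gfi1fl/fl-labelled replicate 2 (limma).

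Bmf, a BH3-only protein that is held at the cytoskeleton until released, was lower on both Gfi1fl/fl-labelled arrays on 1 of its 3 probe sets. That probe set (1454880_PM_s_at), the brightest, gave 8.66 and 8.37 on the WT arrays and 7.93 and 7.89 on the Gfi1fl/fl-labelled arrays. The difference was -0.61 ± 0.22 (SE, 95% interval -1.12 to -0.09, adjusted p = 0.529, limma). On 1422995_PM_at the values were 4.20 and 3.92 against 4.01 and 3.73 and the labels overlapped. On 1458325_PM_x_at all 4 arrays lay between 2.80 and 3.25, below the medians.

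The death pathway around the members was followed in 5 lists, each gene by its brightest probe set. Of 86 genes listed, 78 had a named probe set, none was called and 6 had an unadjusted p under 0.05, where 1.01% of all 17097 genes were called and 7.94% had such a p (limma). The differences lay between -0.60 and 0.65, with a median of -0.08 beside -0.02 over all genes. Pmaip1, at 1.54, lay above that range, Bid, at -1.30, below it, and Bmf, at -0.61, just below its lower end. The dimmer Bmf probe sets, at -0.19 and -0.14, lay inside it.

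Of 15 measured other Bcl-2 family genes none was called (median -0.11). The largest differences there were -0.48 for Bik, a BH3-only gene, and -0.43 for Bcl2a1a, a pro-survival gene (limma, adjusted p = 0.539 and 0.799). Bcl2a1a belongs to a group of near-identical copies whose signals may be mixed. Of 18 genes of the apoptosome, caspases and their inhibitors none was called (median -0.10). Dffb, the apoptotic nuclease, differed by -0.52, and Vdac1, the channel of the outer mitochondrial membrane, by -0.51 (limma, adjusted p = 0.743 and 0.222). Vdac1 read 11.54 and 11.34 on the WT arrays and 10.93 on both others.

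Of 11 death receptor genes none was called (median -0.04). Tnf, the ligand, read 3.21 and 3.37 against 3.96 and 3.92, and its receptor gene Tnfrsf1a read 8.92 and 8.50 against 8.30 and 7.94. Their differences were 0.65 and -0.60 (limma, adjusted p = 0.198 and 0.637). Both WT values of Tnf lay below the array medians, so the size of its difference, the highest of the 78 pathway genes, could not be measured well. Of 16 genes of p53 and its targets none was called (median -0.06). The largest differences were -0.49 for Sesn1, a stress-induced inhibitor of growth signalling, and -0.35 for Ei24 (limma, adjusted p = 0.439 and 0.847). The p53 gene itself, Trp53, had no probe set with a single name. Of 18 upstream regulators of the family none was called (median -0.02). Nr4a1, an orphan nuclear receptor induced by T cell receptor signals, read 8.56 and 8.17 against 9.04 and 8.93, and the kinase gene Pim1 differed by 0.39 (limma, adjusted p = 0.508 and 0.841).

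**Figure D3:**
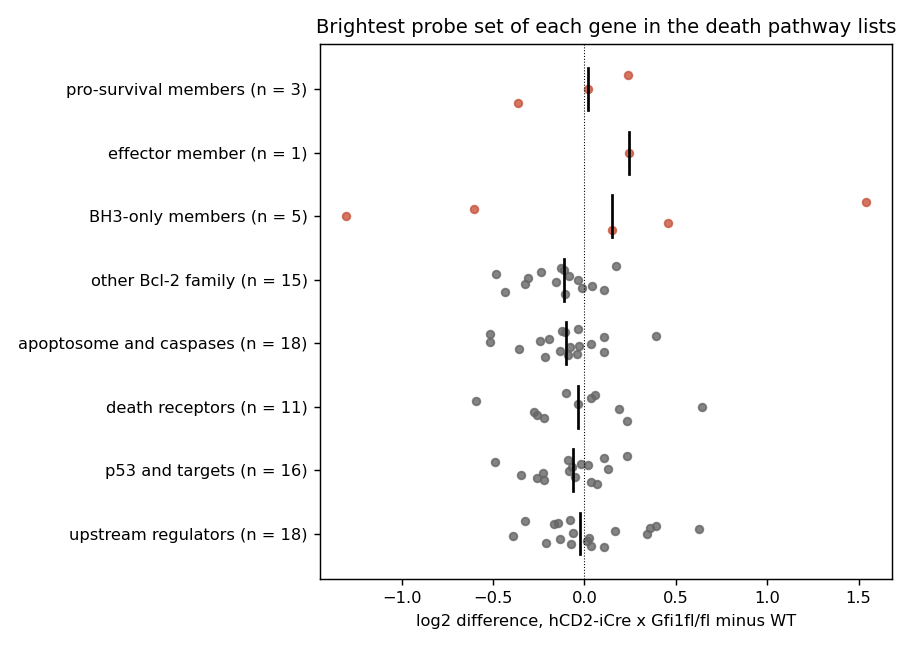
Each point is the log2 difference between labels (horizontal axis, Gfi1fl/fl minus WT) of 1 gene by its brightest probe set, in rows for the members by role and for the 5 pathway lists, with a black bar at the median of the row. The 78 pathway genes lie between -0.60 and 0.65, with Pmaip1 above that range, Bid below it and Bmf just below its lower end.

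Other programmes also separated the arrays, and their part in the values of the members was not tested. Cell cycle genes split the Gfi1fl/fl-labelled arrays from each other. The mean of 23 genes was 8.04 on replicate 1 and 9.64 on replicate 2, with all 23 higher on the latter, beside 8.78 and 9.13 on the WT arrays. None was called, and the largest differences were 0.79 for Ccne1 and -0.63 for Ccne2 (limma, adjusted p = 0.665 and 0.924). Bid, Pmaip1 and all Bcl2l11 probe sets but the dimmest were also higher on replicate 2 than on replicate 1 of that label. So were some probe sets of Bcl2, Bcl2l1, Mcl1, Bak1 and Bmf. On WT replicates 1 and 2 the brightest Bid probe set ran the other way (7.79 and 7.44). Bid 1448560_PM_at (4.63 and 4.97) and Pmaip1 (2.99 and 3.82) were higher on WT replicate 2. So were all Bcl2l11 probe sets but the dimmest, with 10.30 and 10.54 on the brightest, while the dimmest read 3.80 and 3.72. Immediate-early and handling genes had means of 5.73 and 5.72 on the WT arrays and 6.56 and 6.19 on the others. None of these 10 was called, the nearest being Jun, an AP-1 subunit gene, with a difference of 3.04 (limma, adjusted p = 0.0598). Fos differed by 1.48, and the median difference over the 10 was 0.22. At an unadjusted p under 0.05 there were 3 of the 10, against 7.94% of all genes (limma).

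Markers of mature single-positive thymocytes, a stage at which Bcl2 is known to be higher, had means of 6.90 and 6.65 on the WT arrays and 9.33 and 9.32 on the Gfi1fl/fl-labelled arrays. Of 8 measured, 5 rose, led by Klf2, Gimap4 and Ly6c1 with differences of 5.20, 3.92 and 3.86 (limma, adjusted p between 0.000558 and 0.00165). Of 13 measured DP genes, 1 fell, namely Dntt, the template-free DNA polymerase of V(D)J joining, by 0.69 (limma, adjusted p = 0.0381), and the list means were 11.21 and 11.20 against 11.11 and 10.90.

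Of the markers of other cells, most were below the medians in 3 of 5 lists. The 5 measured B cell markers had summed log2 signals of 19.8 to 20.6 on the WT arrays and 18.5 to 19.8 on the others, and 4 of them, Ms4a1, Cd79a, Ebf1 and Pax5, were below the medians on all arrays. Cd79b, the other one, lay between 6.28 and 8.26 and differed by -1.23, and Ms4a1 by 0.19. The sums for 8 myeloid markers were 27.1 to 28.8 and 28.1 to 29.1, with Tyrobp, Fcer1g and Itgax below the medians, and Lyz2 and Itgam differed by 0.51 and -0.22. The sums for 7 markers of natural killer, gamma-delta T and innate lymphoid cells were 26.3 to 26.5 and 28.5 to 28.8, with 4 markers below the medians. Blk read 3.67 and 3.62 on the WT arrays against 5.38 and 4.39, and Nkg7 read 2.95 and 2.77 against 3.43 and 4.28, differences of 1.24 and 0.99. The sums for 8 epithelial and stromal markers were 30.4 to 31.9 and 32.0 to 33.7, with 6 below the medians, and Epcam and Krt8 differed by 1.68 and -0.30. The sums for 3 erythroid markers were 19.0 to 21.0 and 18.6 to 19.2, with Alas2 below the medians. Car2 differed by -1.87, and Hba-a1, with 7.35 and 10.17 against 8.72 and 10.45, by 0.83. No marker in these 5 lists was called (limma, lowest adjusted p = 0.186).

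**Figure D4:**
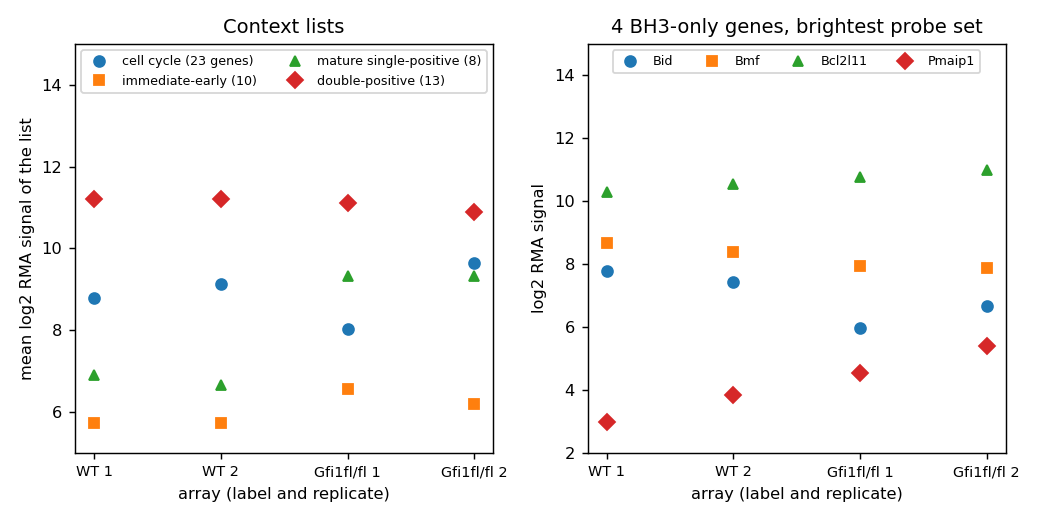
The left panel shows the mean log2 RMA signal of 4 context lists on each array (horizontal axis, label and replicate), and the right panel the log2 RMA signal of 4 BH3-only genes by their brightest probe set. The cell cycle mean is lowest (8.04) and highest (9.64) on the 2 Gfi1fl/fl-labelled arrays, while the mature single-positive mean is above 9 on both of them and below 7 on both WT arrays.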

How the data were processed

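The authors deposited a log2 signal for each probe set. The submitters' processing notes name RMA and version 1.1 of Affymetrix Expression Console, and the scale was inferred from values between 2.19 and 13.5 with nearly equal quartiles. RMA compresses differences at both ends of its range, and no detection calls were used. Probe sets were named from the platform annotation: 28898 had 1 name, 551 several and 15588 none. The labels were compared in limma 3.58.1 under R 4.3.3 (lmFit, then eBayes) with an intensity trend and no covariate, over all 45037 probe sets, leaving 2 residual degrees of freedom per probe set before moderation. Calls used a two-sided Benjamini-Hochberg adjusted p of 0.05, and intervals are 95% intervals of that fit. Each gene of a list was represented by its brightest probe set. All probe sets of the members are named, and from each list up to 3 called genes with the largest difference, or 2 where none was called, together with Gfi1 and 5 DP markers. Foxo1, Foxo3 and Trp53 are named outside this rule, as are marker genes that lay below the array medians. The members, lists and tests were chosen with earlier results of these data known. With 2 arrays per label, their number limits the precision. Alternatives were a replicate block, other normalizations, filters, priors and gene summaries, and leaving out each array. Figures were drawn with matplotlib 3.10.9.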

Additional observations from a re-analysis of the deposited data

How the results depend on the processing

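Over all probe sets 345 were called, 299 higher and 46 lower. Without the intensity trend there were 205 (182 higher and 23 lower). With 1 row per gene there were 190 by the brightest probe set (161 and 29) and 157 by the mean of probe sets (134 and 23), over fewer features. An ordinary t statistic called 1, with 0 higher and 1 lower (3080 at an unadjusted p under 0.05). Leaving out 1 array gave 168 to 368 calls, of which 147 to 329 were higher and 20 to 73 lower, with the fewest calls without WT replicate 2 (168) or WT replicate 1 (178). Such a fit assumes that the lone array varies like the other label. With the replicate block 28 probe sets were called lower and 1 member probe set was called, Pmaip1 (adjusted p = 0.0437, limma). The labels do not state that same-numbered arrays share an animal or a day. Deviations of same-numbered arrays from their label means correlated at 0.30 over all probe sets, a hint from 2 pairs only. Between 0 and 1 member probe sets were called when an array was left out. The cause of these changes was not tested. No gene of the pathway lists was called under any of the alternatives. Of the 24 members' differences, 16 kept their sign under every alternative run. The other 8 changed sign only when an array was left out: Bak1 (1425716_PM_s_at, -0.38 to 0.15), Bbc3 (-0.19 to 0.49), Bid (1447873_PM_x_at, -0.061 to 0.056), Bmf (1458325_PM_x_at, -0.36 to 0.069) and Bcl2l1 (1420887_PM_a_at, -0.13 to 0.59; 1420888_PM_at, -0.10 to 0.13; 1426050_PM_at, -0.069 to 0.17; 1426191_PM_a_at, -0.44 to 0.72).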
